A study of Homo sapiens with 8 samples.

Results

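The genes described are 40 genes of glycolysis and of the response to low oxygen: 17 glycolytic enzymes, and 23 other genes comprising subunits of the hypoxia-inducible factors (HIF), HIF prolyl hydroxylases and known HIF targets. They were taken by symbol from a list out of 25369 genes in the deposited count table, and all 40 were present and passed the filter on low counts. The list was drawn up with earlier results of these data known. Shares of members set beside those of all genes are therefore descriptions and not independent tests. The cells were MDA-MB-231, an established human breast cancer line, in 4 groups of 2 libraries. LBD cells carry a form of SUN2 without residues 1 to 139, the part that binds lamins. Kashlid cells carry a form without residues 569 to 585, designed to break the contact with Nesprin-2G. SUN2KO cells are labelled as a SUN2 knockout, and WT cells as wild type. SUN2 is a protein of the inner nuclear membrane that, through nesprins, joins the nuclear lamina to the cytoskeleton. The labels name no treatment and no culture in low oxygen for any group: all cells grew in a high-glucose medium with serum. They do not give the cells in which the truncated forms were introduced, whether a line is a single clone, or whether the replicates of a group were separate cultures. The p-values below therefore measure the spread between libraries, and that spread may be technical.

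HIF is a transcription factor of an oxygen-sensitive alpha subunit, encoded by HIF1A or EPAS1, and a stable partner. In oxygen, the EGLN prolyl hydroxylases mark the alpha subunit for destruction, so its protein level is set mainly after transcription. When oxygen falls, HIF binds short DNA motifs with the core ACGTG or GCGTG and raises genes for glucose uptake, glycolysis, acid export, blood vessel growth, mitophagy and collagen modification. Many tumour lines also run glycolysis fast in full oxygen, with high levels of the enzymes between triose phosphates and lactate.

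Depth lay between 16570099 and 18814795 counts per library, and 14016 genes passed the filter. Levels are CPM, which scale the counts by library size and TMM factors, and each pair of values gives replicate 1 and then replicate 2. SUN2 transcript, which bears on the labels, stood at 32.5 and 34.6 CPM in LBD, 37.2 and 35.4 in Kashlid, 25.6 and 30.3 in SUN2KO, and 83.7 and 81.9 in WT. All 3 modified lines lay below WT in both libraries, with log2 fold changes of -1.30 ± 0.08, -1.19 ± 0.08 and -1.56 ± 0.08 (SE of the fit) in LBD, Kashlid and SUN2KO. A count per gene does not tell a truncated transcript from a whole one. The 6 mesenchymal markers of the line all passed the filter, at summed levels of 1587 and 1605 CPM in LBD, 1334 and 1428 in Kashlid, 1452 and 1416 in SUN2KO, and 1552 and 1564 in WT. Of 6 luminal and epithelial markers 5 passed, with sums between 72.1 and 78.9 CPM in the modified lines and 60.7 and 65.4 CPM in WT. Most of each sum was ERBB2, at 47.8 to 57.9 CPM, while ESR1, CDH1 and GATA3 lay at 1.68 CPM or less in every library. PGR had 1 count in each WT library and 0 in every modified library. HEK293T, a human embryonic kidney line, was also cultured by the submitters, and of 6 markers of that line 3 passed, with sums between 15.7 and 19.2 CPM in the modified lines and 30.8 and 30.7 CPM in WT. Of these, LIN28B lay between 0.347 and 0.913 CPM in the modified lines and at 0 in both WT libraries, and PAX2, NEFL and NEFM were at or near 0 throughout. The part of these differences in the results below was not tested. In bulk RNA, fewer cells with a transcript and less transcript per cell cannot be told apart.

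Comparing each modified line with WT asks how lines with SUN2 truncated or lost differ from unmodified cells. Each form of SUN2 occurs in a single group, so its part and that of other differences between the lines cannot be told apart. The member genes moved in both directions. CA12, ANGPTL4 and MXI1 stood highest over WT in LBD and Kashlid, while PFKP, PFKFB3, ANKRD37 and EPAS1 fell in all 3 lines. In LBD, 15 members rose and 8 fell (edgeR's quasi-likelihood test, with p adjusted by Benjamini-Hochberg over the whole table and a threshold of 0.05), so that 23 of 40 passed beside 40% of all genes tested (19.0% higher and 21.0% lower). In Kashlid, 13 rose and 12 fell, 25 of 40 beside 44.5% of all genes (21.7% higher and 22.7% lower). In SUN2KO, 8 rose and 13 fell, 21 of 40 beside 36.7% of all genes (17.5% higher and 19.1% lower). The median log2 fold change of the 40 members was 0.02 in LBD, -0.02 in Kashlid and -0.16 in SUN2KO, and that of all genes lay within 0.01 of 0 in each. By subgroup, 8 of the 17 glycolytic enzymes passed in LBD, 9 in Kashlid and 9 in SUN2KO. Of the 23 other members, 15 passed in LBD, 16 in Kashlid and 12 in SUN2KO. Without a test, both libraries of the line lay above or below both WT libraries for 26 of 40 members in LBD, beside 70.0% of all genes. This held for 29 of 40 in Kashlid, beside 71.1% of all genes, and for 32 of 40 in SUN2KO, beside 69.4%. The members' share was thus close to that of all genes in LBD and Kashlid and somewhat higher in SUN2KO. All 3 comparisons share the WT libraries.

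**Figure D1:**
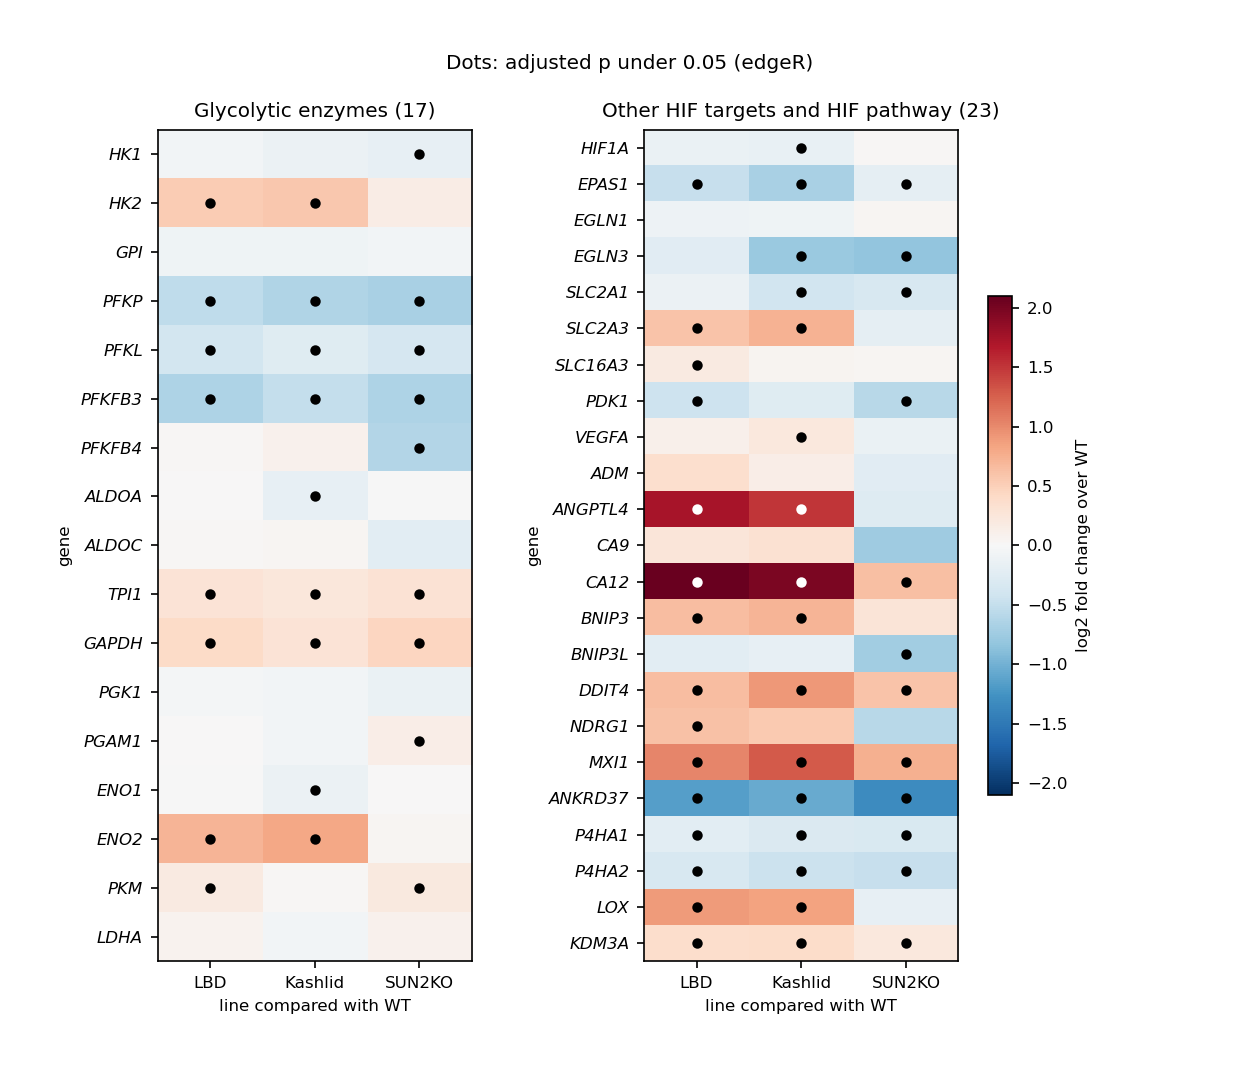
Log2 fold change of each of the 40 genes over WT (colour) in LBD, Kashlid and SUN2KO, with the 17 glycolytic enzymes at left and the 23 other genes at right; dots mark an adjusted p under 0.05. CA12 reaches 2.08 in LBD and ANKRD37 -1.32 in SUN2KO, while most enzymes lie close to 0.

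Among the enzymes of the first phase of glycolysis, from glucose to triose phosphates, the hexokinase HK2 rose in both truncation lines and the phosphofructokinase PFKP fell in all 3 lines. HK2, the inducible hexokinase that traps glucose in the cell (chromosome 2, 75059782 to 75120481 on hg19, as are all coordinates unless stated), had 136 and 163 CPM in LBD, 149 and 157 in Kashlid, 112 and 116 in SUN2KO, and 99.6 and 107 in WT. Both truncation lines lay above both SUN2KO and WT, and SUN2KO lay just above WT. The rise was 0.53 ± 0.07 in LBD (adjusted p = 3.99e-06) and 0.57 ± 0.07 in Kashlid (1.39e-06), while SUN2KO differed from WT by 0.15 ± 0.07 (0.108). PFKP, the platelet-type enzyme of the committing step (chromosome 10, 3109712 to 3178997), had 186 and 201 CPM in LBD, 177 and 184 in Kashlid, 173 and 178 in SUN2KO, and 283 and 279 in WT. It was the enzyme gene with the deepest fall in Kashlid and SUN2KO: all 6 modified libraries lay far below WT, with log2 fold changes of -0.54 ± 0.05, -0.64 ± 0.05 and -0.68 ± 0.05 in LBD, Kashlid and SUN2KO, with adjusted p of at most 5.96e-08. The liver-type enzyme PFKL also fell in each line, with log2 fold changes between -0.38 and -0.26, and the median gene of its chromosomal window was lower as well (given with the windows).

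PFKFB3 and PFKFB4 make and break fructose 2,6-bisphosphate, the activator of phosphofructokinase. PFKFB3 (chromosome 10, 6188279 to 6277507) had 21.2 and 21.6 CPM in LBD, 22.3 and 25.1 in Kashlid, 22.7 and 19.8 in SUN2KO, and 32.6 and 34.4 in WT. All 6 modified libraries lay below both WT libraries. PFKFB3 fell in every line, with log2 fold changes of -0.65 ± 0.10 in LBD, -0.50 ± 0.10 in Kashlid and -0.66 ± 0.10 in SUN2KO (adjusted p of at most 0.000301). PFKFB4 (chromosome 3, 48555117 to 48594227) had 29.8 and 37.1 CPM in LBD, 32.5 and 38.0 in Kashlid, 20.4 and 22.7 in SUN2KO, and 31.4 and 34.7 in WT. Only the SUN2KO libraries stood apart, below the other 6: the change over WT was -0.61 ± 0.11 in SUN2KO (adjusted p = 0.000181), and 0.02 ± 0.11 in LBD and 0.09 ± 0.11 in Kashlid, which did not pass. Of the other enzymes of this phase, HK1 fell in SUN2KO with a log2 fold change of -0.17 ± 0.06 (adjusted p = 0.0466, but 0.107 and 0.251 without SUN2KO replicate 1 or 2, 0.332 without WT replicate 2 and 0.0869 in DESeq2), and ALDOA fell in Kashlid with a change of -0.17 ± 0.05 (adjusted p = 0.0173, but 0.43 without Kashlid replicate 1, 0.0716 and 0.0754 without WT replicate 1 or 2, 0.0595 with library size only and 0.152 in DESeq2). GPI and ALDOC passed in no line. The PFKL call in Kashlid was also lost without WT replicate 2 (adjusted p = 0.0531).

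Among the 8 enzymes of the second phase, from triose phosphates to lactate, changes were small apart from ENO2. GAPDH (chromosome 12, 6643571 to 6647541), the most abundant member per exon length, had 4985 and 5409 CPM in LBD, 4517 and 5054 in Kashlid, 5422 and 5320.5 in SUN2KO, and 3912 and 3974 in WT. Every modified library lay above both WT libraries, by 0.40 ± 0.04 in LBD, 0.28 ± 0.04 in Kashlid and 0.45 ± 0.04 in SUN2KO (adjusted p of at most 2.81e-05). The GENCODE annotation holds 62 pseudogenes named after GAPDH, 13 after PGAM1 and 4 after TPI1, so reads of these genes may be split. TPI1, which interconverts the triose phosphates, rose in all 3 lines by between 0.23 and 0.30. PKM, the pyruvate kinase, rose by 0.20 ± 0.04 in LBD and 0.21 ± 0.04 in SUN2KO, and PGAM1 rose by 0.14 ± 0.04 in SUN2KO and passed in no other line. The PGAM1 call was lost without any single library of SUN2KO or WT (adjusted p between 0.0625 and 0.103), and that of TPI1 in Kashlid without Kashlid replicate 2 (0.0731) and in DESeq2 (0.0678).

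ENO2, the neuronal-type enolase (chromosome 12, 7023614 to 7032859), had 40.7 and 62.7 CPM in LBD, 47.5 and 63.5 in Kashlid, 28.2 and 37.0 in SUN2KO, and 28.6 and 34.7 in WT. The 4 truncation libraries lay above all SUN2KO and WT libraries, and replicate 2 lay above replicate 1 in each group. ENO2 rose by 0.71 ± 0.16 in LBD (adjusted p = 0.00139) and 0.81 ± 0.16 in Kashlid (0.000312), and in SUN2KO the change was 0.04 ± 0.17 (0.864). The LBD call was lost without LBD replicate 2 (adjusted p = 0.0956) and in DESeq2 (0.0688). ENO1, the general enolase, fell in Kashlid (-0.12 ± 0.04, adjusted p = 0.0109), a call lost without Kashlid replicate 1 (0.175), without either WT library (0.0573 and 0.0538) and with library size only (0.0543).

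LDHA and PGK1, HIF-induced enzymes often used as readouts of the response, did not pass against WT in any line, though some alternatives called them. LDHA, which reduces pyruvate to lactate (chromosome 11, 18415936 to 18429765), had 2486 and 2675 CPM in LBD, 2236 and 2470.1 in Kashlid, 2626 and 2577 in SUN2KO, and 2439.6 and 2462 in WT. The LBD and SUN2KO libraries lay just above WT and Kashlid overlapped it. The changes of LDHA were 0.07 ± 0.04, -0.06 ± 0.04 and 0.09 ± 0.04 in LBD, Kashlid and SUN2KO (adjusted p = 0.188, 0.289 and 0.129). LDHA passed in SUN2KO with the 2 groups alone (0.0256), with no filter (0.042) and without Kashlid replicate 1 (0.0489), in Kashlid without its replicate 2 (0.02), and in LBD with library size only (0.0453). PGK1, the ATP-producing phosphoglycerate kinase (chromosome X, 77359666 to 77382324), had 930.1 and 1104 CPM in LBD, 949 and 1068 in Kashlid, 935 and 973 in SUN2KO, and 1031 and 1074 in WT. Its changes were -0.05 ± 0.06, -0.06 ± 0.06 and -0.14 ± 0.06 (adjusted p = 0.564, 0.439 and 0.0778). Both SUN2KO libraries of PGK1 lay below both WT libraries, and the truncation lines overlapped WT. The authors' deposited DESeq2 results did call PGK1 and LDHA in SUN2KO (adjusted p = 0.00233 and 0.0181). The SUN2KO change of PGK1 passed under 7 of the alternatives, with adjusted p between 0.000997 and 0.0327.

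Of the genes for HIF alpha subunits, EPAS1 fell in all 3 lines and HIF1A passed in Kashlid. EPAS1 encodes HIF-2alpha (chromosome 2, 46524541 to 46613842) and had 286 and 291 CPM in LBD, 271 and 235 in Kashlid, 363 and 349 in SUN2KO, and 406 and 405 in WT. All 6 modified libraries lay below WT, Kashlid lowest: the log2 fold change was -0.49 ± 0.05 in LBD (adjusted p = 4.43e-07), -0.68 ± 0.05 in Kashlid (3.71e-09) and -0.19 ± 0.05 in SUN2KO (0.0089). The SUN2KO call was lost without SUN2KO replicate 2 (adjusted p = 0.108) and without WT replicate 1 (0.0539). HIF1A, encoding HIF-1alpha (chromosome 14, 62162119 to 62214977), had 251 and 247 CPM in LBD, 266 and 227 in Kashlid, 285 and 272 in SUN2KO, and 271 and 275 in WT. LBD and Kashlid lay below WT and SUN2KO overlapped it. Its fall in Kashlid, -0.15 ± 0.06, passed narrowly (adjusted p = 0.0447) and failed without any 1 of the SUN2KO, LBD or WT libraries or Kashlid replicate 2 (adjusted p between 0.0572 and 0.626), with library size only (0.132), with a stricter filter (0.0533), in DESeq2 (0.0589) and with the 2 groups alone (0.0958). LBD (-0.14 ± 0.06, and 5 of 16 alternatives passed, with adjusted p between 0.0155 and 0.0428) and SUN2KO (0.03 ± 0.06) did not pass, and HIF1A overlaps antisense genes whose reads cannot be told apart, since the strand setting of the counting is not given in the sources used here.

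The prolyl hydroxylases EGLN1 and EGLN3 limit HIF, and EGLN3 is itself a HIF target. EGLN1 passed in no line, with changes between -0.10 and 0.04. EGLN3 (chromosome 14, 34393421 to 34420284) was expressed at few CPM, 4.69 and 6.52 CPM in LBD, 3.30 and 4.40 in Kashlid, 3.30 and 4.14 in SUN2KO, and 5.89 and 7.33 in WT. Kashlid and SUN2KO lay below WT and LBD overlapped it: EGLN3 fell in Kashlid (-0.78 ± 0.23, adjusted p = 0.00771) and SUN2KO (-0.83 ± 0.22, 0.0062), and the LBD change was -0.24 ± 0.22 (0.403). These calls were lost without WT replicate 2 (adjusted p = 0.103 in Kashlid and 0.0922 in SUN2KO), and without replicate 1 of the line itself (0.0762 and 0.0862).

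Of the glucose transporters, SLC2A1 fell in Kashlid and SUN2KO and SLC2A3 rose in LBD and Kashlid. SLC2A1 (GLUT1, chromosome 1, 43391046 to 43424847) had 173 and 219 CPM in LBD, 148 and 176 in Kashlid, 168 and 169 in SUN2KO, and 210.3 and 216 in WT. It fell in Kashlid (-0.40 ± 0.08, adjusted p = 0.000487) and in SUN2KO (-0.34 ± 0.08, 0.00267, and 0.0754 in DESeq2), while LBD, whose libraries lie either side of WT, differed by -0.12 ± 0.08 (0.253). SLC2A3 (GLUT3, chromosome 12, 8071824 to 8088892), a high-affinity transporter, had 215 and 329 CPM in LBD, 287 and 309.6 in Kashlid, 155 and 160.2 in SUN2KO, and 171 and 188 in WT. Both truncation lines lay above WT and SUN2KO lay below it: SLC2A3 rose by 0.60 ± 0.11 in LBD (adjusted p = 0.000219) and 0.73 ± 0.11 in Kashlid (1.86e-05), and the SUN2KO difference of -0.19 ± 0.11 did not pass (0.209), and passed under 5 of 16 alternatives (adjusted p between 0.00151 and 0.0176). Per exon length, SLC2A1 stood at 0.791 and 0.654 times SLC2A3 in LBD, 0.504 and 0.557 times in Kashlid, 1.07 and 1.04 times in SUN2KO, and 1.21 and 1.13 times in WT. SLC2A1 was thus the higher of the pair in SUN2KO and WT and the lower in the truncation lines, in every library.

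PDK1, the kinase that keeps pyruvate out of the mitochondrial citric acid cycle (chromosome 2, 173420697 to 173463862), had 22.1 and 29.8 CPM in LBD, 27.6 and 30.9 in Kashlid, 22.6 and 23.9 in SUN2KO, and 34.4 and 35.4 in WT. All modified libraries lay below WT, and the fall passed in LBD (-0.43 ± 0.11, adjusted p = 0.004) and SUN2KO (-0.59 ± 0.11, 0.000303) and did not in Kashlid (-0.26 ± 0.11, 0.0646), which passed under 7 of 16 alternatives (adjusted p between 0.0296 and 0.042). The LBD call was lost without LBD replicate 1 (adjusted p = 0.139). SLC16A3, the lactate exporter, rose in LBD by 0.19 ± 0.06 (adjusted p = 0.00861, but 0.278 without LBD replicate 2 and 0.052 without WT replicate 1) and passed in no other line.

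Of the secreted factors, ANGPTL4 rose in the truncation lines and VEGFA passed narrowly in Kashlid. ANGPTL4, an inhibitor of lipoprotein lipase (chromosome 19, 8429011 to 8439259), had 50.8 and 111 CPM in LBD, 59.8 and 79.2 in Kashlid, 18.5 and 22.1 in SUN2KO, and 21.6 and 27.3 in WT. All 4 truncation libraries lay above every SUN2KO and WT library, and LBD replicate 2 was highest. ANGPTL4 was 3.30-fold higher in LBD (1.72 ± 0.23 on the log2 scale, adjusted p = 3.67e-06) and 2.84-fold higher in Kashlid (1.51 ± 0.23, 1.70e-05), and SUN2KO differed from WT by -0.27 ± 0.25 (0.445). Compared within replicate numbers, the log2 ratio of ANGPTL4 over WT was 1.24 and 2.03 in LBD and 1.47 and 1.54 in Kashlid. VEGFA, the vessel growth factor (chromosome 6, 43737946 to 43754223), had 128 and 143 CPM in LBD, 163 and 132 in Kashlid, 109 and 118 in SUN2KO, and 116 and 135 in WT. Kashlid and WT overlapped; the Kashlid change of 0.23 ± 0.09 passed (adjusted p = 0.0337) but not without Kashlid replicate 1 (0.522), without WT replicate 1 (0.373), in DESeq2 (0.267) or with the 2 groups alone (0.0586). ADM, which encodes the vasodilator adrenomedullin, passed in no line, with changes of 0.36 ± 0.23, 0.14 ± 0.23 and -0.23 ± 0.24 in LBD, Kashlid and SUN2KO.

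The carbonic anhydrases CA12 and CA9, which act on the outer face of the cell and take part in acid handling, gave different calls: CA12 rose in all 3 lines and CA9 passed in none. CA12 (chromosome 15, 63615730 to 63674075) had 19.2 and 23.9 CPM in LBD, 17.6 and 22.5 in Kashlid, 6.87 and 8.81 in SUN2KO, and 4.93 and 5.23 in WT. The truncation libraries were all above 17 CPM and the SUN2KO libraries lay between them and WT. CA12 was 4.23-fold higher in LBD (2.08 ± 0.17, adjusted p = 3.43e-09), 3.94-fold in Kashlid (1.98 ± 0.17, 6.67e-09) and 1.54-fold in SUN2KO (0.63 ± 0.18, 0.0109). The SUN2KO call was lost without SUN2KO replicate 2 (adjusted p = 0.163) and without WT replicate 1 (0.0678). CA9 (chromosome 9, 35673915 to 35681154), among the most HIF-dependent genes known, had 17.2 and 49.9 CPM in LBD, 27.0 and 43.2 in Kashlid, 12.01 and 21.7 in SUN2KO, and 20.6 and 35.6 in WT. Replicate 2 was at least 1.5 times replicate 1 in every group, and each modified line overlapped WT. The changes of 0.25 ± 0.32 in LBD, 0.32 ± 0.32 in Kashlid and -0.74 ± 0.34 in SUN2KO did not pass (adjusted p = 0.575, 0.441 and 0.0951). The SUN2KO difference passed under 8 of 16 alternatives, among them the 2 groups alone (0.000549), and without WT replicate 1 (0.0346) or any 1 LBD or Kashlid library (between 0.0216 and 0.0389). Within replicate numbers it was -0.78 and -0.71, against 0.39 and 0.28 in Kashlid and -0.26 and 0.49 in LBD. With the replicate number as a block, CA9 passed in SUN2KO (-0.74, edgeR adjusted p = 0.000208) and Kashlid (0.34, 0.0393) and not in LBD. Without LBD replicate 1 the LBD change was 0.83 and passed (0.0203). ARHGEF39 overlaps CA9 on the opposite strand.

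**Figure D2:**
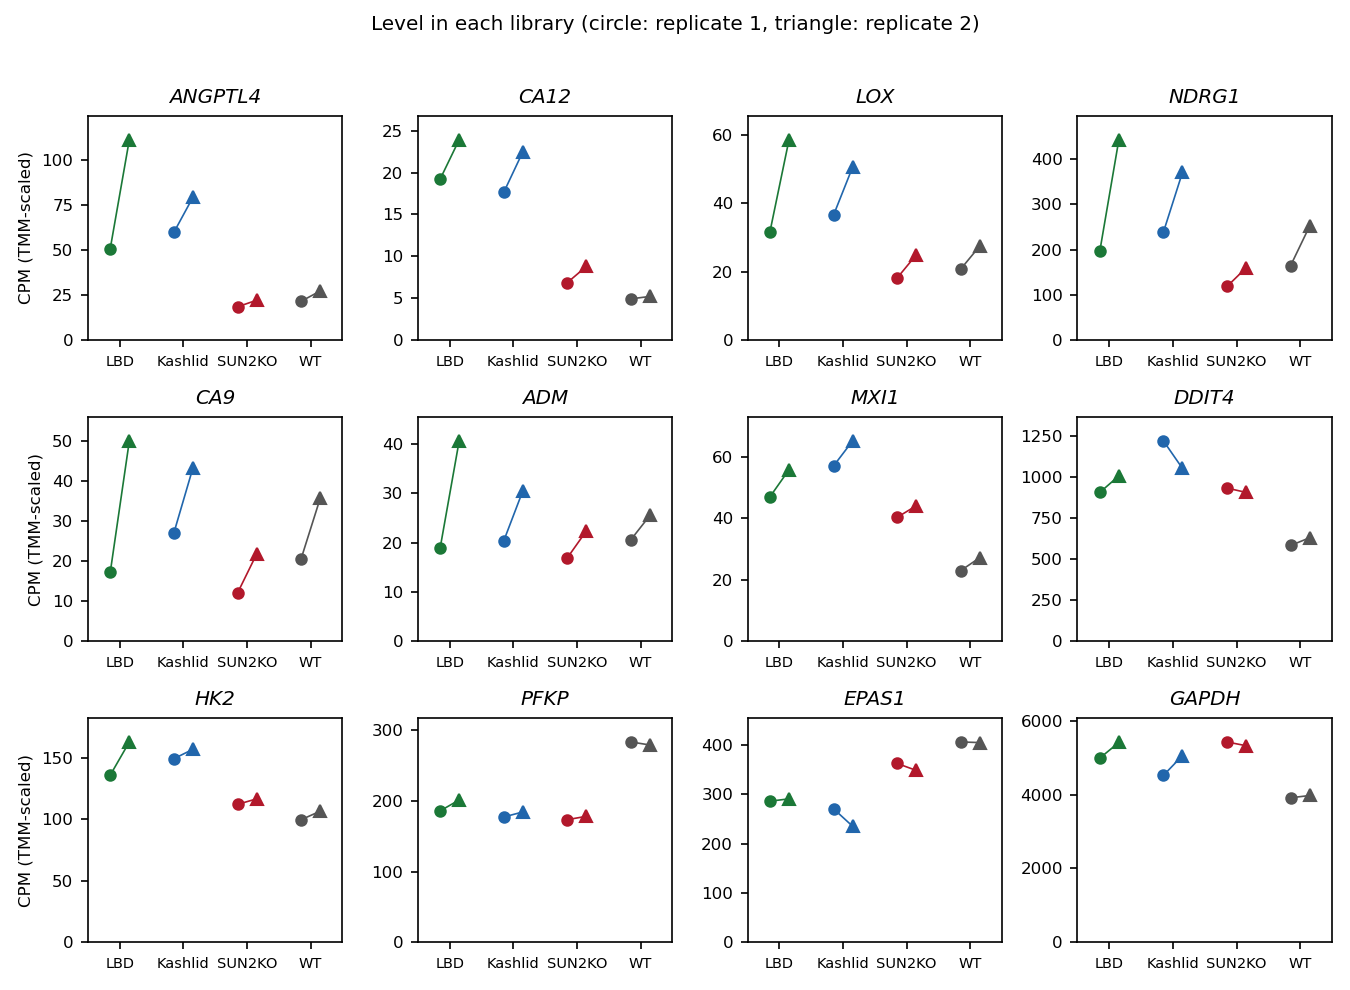
Level of 12 of the genes in each library, in TMM-scaled CPM on linear axes from 0, for LBD, Kashlid, SUN2KO and WT; circles are replicate 1, triangles replicate 2, and lines join the libraries of a group. ANGPTL4, CA12 and LOX lie higher in both truncation lines than in SUN2KO and WT, and in LBD the circle and triangle of CA9, NDRG1, ANGPTL4 and ADM lie far apart.

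Among genes of mitophagy and growth control, MXI1 and DDIT4 rose in all 3 lines. MXI1, a partner of MAX that opposes MYC (chromosome 10, 111985762 to 112047123), had 47.0 and 55.8 CPM in LBD, 57.0 and 65.2 in Kashlid, 40.3 and 44.1 in SUN2KO, and 23.01 and 27.2 in WT. The groups did not overlap and Kashlid was highest, 2.43-fold over WT (1.28 ± 0.10, adjusted p = 2.07e-09), against 2.04-fold in LBD (1.03 ± 0.10, 7.35e-08) and 1.68-fold in SUN2KO (0.75 ± 0.10, 7.41e-06). DDIT4, an inhibitor of mTORC1 also called REDD1 (chromosome 10, 74033677 to 74035797), had 907 and 1007 CPM in LBD, 1221 and 1053 in Kashlid, 933 and 907 in SUN2KO, and 584 and 631 in WT. Every modified library lay well above WT, with changes of 0.66 ± 0.06, 0.90 ± 0.06 and 0.60 ± 0.06 in LBD, Kashlid and SUN2KO (adjusted p of at most 1.22e-07). Of the mitophagy receptors, BNIP3 rose in the truncation lines and BNIP3L fell in SUN2KO. BNIP3 (chromosome 10, 133781204 to 133795435) had 78.4 and 105 CPM in LBD, 86.4 and 105 in Kashlid, 67.1 and 74.6 in SUN2KO, and 54.7 and 62.3 in WT. The truncation libraries lay above SUN2KO, and SUN2KO above WT. BNIP3 rose by 0.65 ± 0.11 in LBD (adjusted p = 6.63e-05) and 0.71 ± 0.11 in Kashlid (1.97e-05), with 0.27 ± 0.11 in SUN2KO just short of the threshold (0.0555). The SUN2KO difference passed under 7 of 16 alternatives, among them the 2 groups alone (0.00147) and leaving out any 1 Kashlid or LBD library (between 0.0164 and 0.0199). The annotation holds 39 pseudogenes named after BNIP3, and its counts are uncertain for that reason. BNIP3L (chromosome 8, 26240523 to 26270644) had 39.7 and 50.5 CPM in LBD, 45.7 and 48.2 in Kashlid, 28.5 and 34.8 in SUN2KO, and 48.6 and 56.7 in WT. Its SUN2KO libraries lay lowest and LBD overlapped WT. SUN2KO stood 1.67-fold below WT (-0.74 ± 0.11, adjusted p = 1.68e-05), while LBD (-0.22 ± 0.10, 0.096) and Kashlid (-0.17 ± 0.10, 0.206) did not pass. LBD passed under 4 of 16 alternatives (adjusted p between 0.0137 and 0.0497).

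NDRG1, a stress-induced gene linked to growth arrest and differentiation (chromosome 8, 134249414 to 134309547), had 196 and 442 CPM in LBD, 238 and 370.5 in Kashlid, 119 and 159.6 in SUN2KO, and 165 and 252 in WT. LBD and Kashlid overlapped WT, their replicates lying far apart, and SUN2KO lay below WT. The LBD change of 0.61 ± 0.24 passed narrowly (adjusted p = 0.0491), but it was -0.09 without LBD replicate 2 (0.796) and did not pass without WT replicate 1 (0.396), without either SUN2KO library (0.0722 and 0.0674), or under median-ratio factors (0.0518), the stricter filter (0.0734), the 2 groups alone (0.0533) or DESeq2 (0.422). Kashlid (0.54 ± 0.24, adjusted p = 0.0735) and SUN2KO (-0.58 ± 0.25, 0.0711) did not pass, but they lay near the threshold and passed under 7 and 8 of 16 alternatives. Among these were the 2 groups alone (0.0245 in Kashlid and 1.17e-05 in SUN2KO) and leaving out either LBD library (0.0114 and 0.0119 in Kashlid, 0.0112 and 0.0118 in SUN2KO). Kashlid also passed without its replicate 1 (0.00417) or WT replicate 2 (0.0273), and SUN2KO without WT replicate 1 (0.0236) or either Kashlid library (0.0195 and 0.0207). Compared within replicate numbers, the log2 ratio of NDRG1 over WT was 0.25 and 0.81 in LBD, 0.53 and 0.55 in Kashlid and -0.47 and -0.66 in SUN2KO. ANKRD37, an ankyrin-repeat gene induced by HIF (chromosome 4, 186317840 to 186321390), was the lowest expressed member by CPM, at 0.694 and 1.49 CPM in LBD, 1.33 and 0.997 in Kashlid, 0.758 and 1.18 in SUN2KO, and 2.20 and 2.67 in WT. All modified libraries lay below WT, with log2 fold changes of -1.16 ± 0.38, -1.06 ± 0.38 and -1.32 ± 0.39 in LBD, Kashlid and SUN2KO (adjusted p = 0.0209, 0.0277 and 0.0104). These calls rest on few counts: DESeq2 gave adjusted p of 0.0986, 0.123 and 0.0554. They were also lost without WT replicate 2 (0.138, 0.162 and 0.0902), in LBD without its replicate 1 (0.241), in Kashlid without its replicate 2 (0.154) or WT replicate 1 (0.0537), and in SUN2KO without its replicate 1 (0.123). UFSP2 overlaps ANKRD37 on the opposite strand.

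Of the genes that modify matrix or chromatin, LOX, which cross-links collagen and elastin (chromosome 5, 121398890 to 121414055), had 31.6 and 58.5 CPM in LBD, 36.5 and 50.6 in Kashlid, 18.2 and 24.9 in SUN2KO, and 20.8 and 27.6 in WT. The truncation libraries lay above all SUN2KO and WT libraries, by 0.89 ± 0.20 over WT in LBD (adjusted p = 0.0014) and 0.85 ± 0.20 in Kashlid (0.00195), and SUN2KO overlapped WT (-0.17 ± 0.22, 0.588). DESeq2 did not call it (adjusted p = 0.0778 and 0.0978), nor did LBD pass without its replicate 2 (0.127); SRFBP1 overlaps LOX on the opposite strand. P4HA1 and P4HA2, catalytic subunits of the collagen prolyl hydroxylase, fell in all 3 lines, with log2 fold changes of -0.34, -0.46 and -0.49 for P4HA2 and -0.22, -0.30 and -0.32 for P4HA1 in LBD, Kashlid and SUN2KO. The P4HA1 call was lost in LBD without LBD replicate 1 (adjusted p = 0.58), without either WT library (0.102 and 0.138), with library size only (0.0699) and in DESeq2 (0.0679), and in SUN2KO without SUN2KO replicate 2 (0.109), while that of P4HA2 was lost in LBD without LBD replicate 1 (0.0756) and WT replicate 2 (0.0501). KDM3A, a histone demethylase, rose by 0.37 ± 0.08 in LBD, 0.38 ± 0.08 in Kashlid and 0.23 ± 0.08 in SUN2KO. Its SUN2KO call was lost without any single SUN2KO or WT library (adjusted p between 0.0505 and 0.207) and in DESeq2 (0.0743).

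Comparing the truncation lines with SUN2KO asks whether they resemble the knockout line in these genes. They differed from it in part of the hypoxia genes. In Kashlid, 15 members were higher and 7 lower than in SUN2KO, 22 of 40 passing beside 18.0% of all genes (8.92% higher and 9.13% lower). In LBD, 10 were higher and 2 lower, 12 of 40 beside 13.5% of all genes (6.69% higher and 6.79% lower). The libraries of Kashlid and SUN2KO did not overlap for 26 of 40 members, beside 56.8% of all genes, and those of LBD and SUN2KO for 21 of 40, beside 54.6%. Among the 23 members that are not glycolytic enzymes, 12 were higher and 2 lower in Kashlid, and 7 higher and 1 lower in LBD. The median log2 fold change of these 23 was 0.33 in Kashlid and 0.25 in LBD, and that of all genes lay within 0.01 of 0 in each. Both comparisons share the SUN2KO libraries.

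The largest differences from SUN2KO were in ANGPTL4, CA12, NDRG1, LOX and CA9. ANGPTL4 was 3.97-fold higher in LBD than in SUN2KO (1.99 ± 0.23, adjusted p = 2.39e-06) and 3.42-fold higher in Kashlid (1.77 ± 0.23, 1.12e-05). CA12 was 2.75-fold higher in LBD (7.39e-07) and 2.55-fold in Kashlid (1.99e-06). For both genes the 4 truncation libraries lay above both SUN2KO libraries by a wide margin, and both calls held in DESeq2 and without any single library. NDRG1 was higher by 1.20 ± 0.25 in LBD (adjusted p = 0.00199) and 1.13 ± 0.25 in Kashlid (0.00256), and LOX by 1.06 ± 0.20 (0.00105) and 1.01 ± 0.20 (0.00131). CA9 passed in Kashlid (1.06 ± 0.33, 0.0307) and not in LBD (0.99 ± 0.33, 0.055). These 3 genes were less secure: without SUN2KO replicate 1 the adjusted p was 0.0949 and 0.0985 for NDRG1 in LBD and Kashlid, 0.068 and 0.0701 for LOX, and 0.368 for CA9 in Kashlid. Without LBD replicate 2 it was 0.192 for NDRG1 and 0.0927 for LOX in LBD, CA9 gave 0.194 without Kashlid replicate 2 and 0.0516 with the stricter filter, and DESeq2 called none of the 3 (adjusted p between 0.0799 and 0.386).

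Of the other members above SUN2KO, SLC2A3 (0.78 ± 0.11 in LBD and 0.92 ± 0.11 in Kashlid), PFKFB4 (0.63 ± 0.11 and 0.71 ± 0.11) and HK2 (0.38 ± 0.07 and 0.42 ± 0.07) passed in both lines. So did ENO2, BNIP3L and BNIP3, but ENO2, BNIP3L and BNIP3 lost the LBD call without LBD replicate 2 (adjusted p = 0.303, 0.121 and 0.511) and both calls without SUN2KO replicate 1 (adjusted p between 0.0504 and 0.268). MXI1 and DDIT4 passed in Kashlid alone of the pair, with MXI1 at 0.53 ± 0.09 and DDIT4 at 0.31 ± 0.06. Below SUN2KO in both lines stood EPAS1 (-0.30 ± 0.05 in LBD and -0.49 ± 0.05 in Kashlid, adjusted p of at most 0.000569) and PGAM1 (-0.14 ± 0.04 and -0.19 ± 0.04), whose LBD call was lost under most alternatives (adjusted p up to 0.549). In Kashlid, 4 further enzymes of the second phase, GAPDH, ENO1, PKM and LDHA, were lower than in SUN2KO, with log2 fold changes between -0.19 and -0.13, and of the 8 enzymes of that phase 5 were lower and 1, ENO2, was higher. VEGFA (0.37 ± 0.09) and PDK1 (0.33 ± 0.11) were also higher in Kashlid than in SUN2KO, and HIF1A (-0.18 ± 0.06) was lower. Without SUN2KO replicate 1 the Kashlid calls of GAPDH, ENO1, LDHA, VEGFA, PDK1 and HIF1A were lost (adjusted p = 0.0983, 0.0877, 0.155, 0.101, 0.267 and 0.278). Fewer members passed without SUN2KO replicate 1 in both lines, and in LBD also without LBD replicate 2. Fewer genes passed over the whole table in these fits too. In LBD more members and more genes passed without either Kashlid library. More members also passed in LBD without LBD replicate 1, where fewer genes passed over the whole table. The ranges for members and for all genes are given at the end. Over all genes, 938 were higher and 952 lower in LBD than in SUN2KO, and 1250 higher and 1279 lower in Kashlid. With library size only as the scaling these became 1128 higher and 718 lower in LBD and 1574 higher and 996 lower in Kashlid, with 14 members higher and 1 lower in LBD, and 15 higher and 5 lower in Kashlid.

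**Figure D3:**
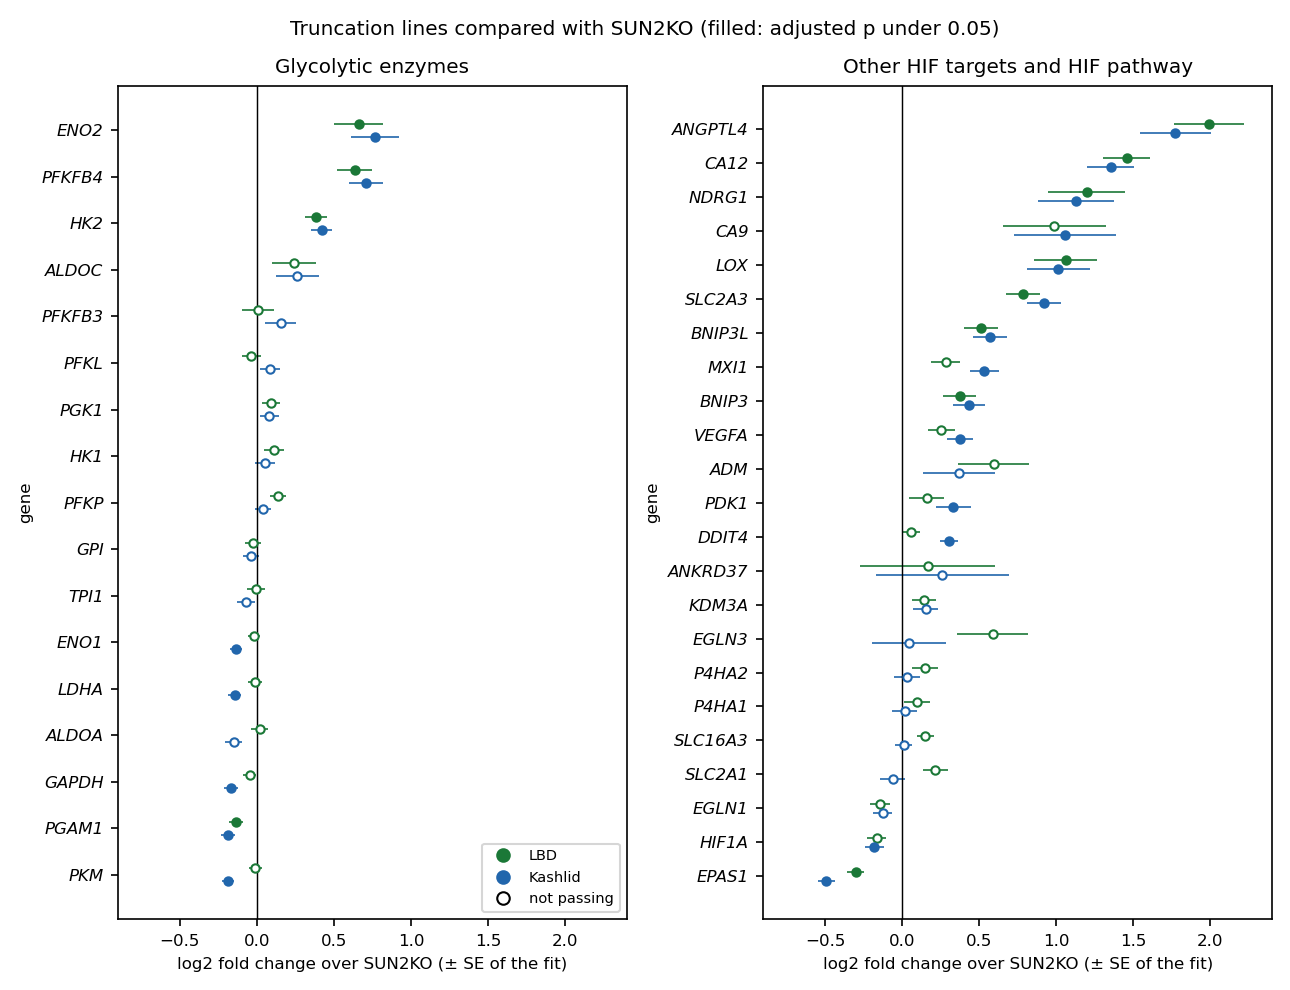
Log2 fold change of each of the 40 genes over SUN2KO, with the SE of the fit as bars, for LBD (green) and Kashlid (blue); filled points pass the adjusted p of 0.05. ANGPTL4 and CA12 lie farthest to the right in both lines, at 1.99 and 1.46 in LBD, and EPAS1 lies farthest to the left.

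Few of these genes separated LBD from Kashlid. Of the 40, PKM was higher in LBD than in Kashlid (0.18 ± 0.04, adjusted p = 0.0179) and DDIT4 lower (-0.25 ± 0.06, 0.0231), so that 2 of 40 passed beside 2.91% of all genes (1.63% higher and 1.28% lower). Their libraries did not overlap for 11 of 40 members, beside 43.8% of all genes. Both calls were lost without Kashlid replicate 1 (0.152 for PKM and 0.239 for DDIT4) and with the 2 groups alone (0.119 and 0.11). PKM also lost it without LBD replicate 2 (0.189), and DDIT4 without LBD replicate 1 (0.291), without SUN2KO replicate 1 (0.0521) and in DESeq2 (0.189). The largest difference among members not passing was in EGLN3, 0.54 ± 0.23 (0.233), so a difference of that size between the truncations was not detectable at the few CPM of this gene. More members passed without Kashlid replicate 2, where more genes passed over the whole table. More members also passed without LBD replicate 1, where fewer genes did. Without Kashlid replicate 1 or SUN2KO replicate 1, fewer members and fewer genes passed.

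The hypoxia genes also separated the libraries by replicate number. Of the 40 members, 22 (55%) had more CPM in replicate 2 than in replicate 1 in all 4 groups, against 7.29% of all genes tested. None had less in all 4, against 7.96% of all genes. The 22 comprised 8 of the 17 enzymes and 14 of the 23 other members. The median ratio of replicate 2 to replicate 1 over the 23 was 1.27 in LBD, 1.14 in Kashlid, 1.09 in SUN2KO and 1.10 in WT. Over all genes it was 0.997, 1.00, 0.993 and 0.999 in the same groups. The labels do not say what the number stands for, and the numbers were not taken to pair the libraries (the check is given with the limits).

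CA9 had the largest ratios over the 4 groups together. In LBD it had 49.9 CPM in replicate 2 and 17.2 in replicate 1, a ratio of 2.91, and the ratios were 1.60 in Kashlid, 1.81 in SUN2KO and 1.73 in WT. NDRG1 had 442 CPM in replicate 2 and 196 in replicate 1 of LBD, and its ratios were 2.26 in LBD, 1.55 in Kashlid, 1.34 in SUN2KO and 1.53 in WT. ADM had 18.9 and 40.7 CPM in LBD, 20.4 and 30.5 in Kashlid, 16.9 and 22.4 in SUN2KO, and 20.6 and 25.6 in WT, and LBD replicate 2 was the highest library. ALDOC, a brain-type aldolase, had 32.0 and 40.1 CPM in LBD, 32.1 and 41.0 in Kashlid, 26.2 and 34.8 in SUN2KO, and 30.8 and 40.3 in WT. In each group replicate 2 of ALDOC lay above replicate 1. In LBD, ratios of at least 1.5 were also found for ANGPTL4 (2.19), ADM (2.16), ANKRD37 (2.15), LOX (1.85), ENO2 (1.54) and SLC2A3 (1.53). ENO1, an abundant enzyme, had nearly equal replicates, with ratios of 1.03, 1.07, 0.990 and 1.00 in LBD, Kashlid, SUN2KO and WT. HIF1A ran the other way in LBD, Kashlid and SUN2KO, at 0.985, 0.852 and 0.954, and stood at 1.01 in WT.

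A fit with the number as a term beside the groups, chosen after seeing the data, called 8 of the 40 members higher in replicate 2 (edgeR's quasi-likelihood test, Benjamini-Hochberg) beside 0.150% of all genes, or 21 of 14016. No gene was called lower, and 1039 genes had an unadjusted p under 0.05. The members were CA9 (0.97 ± 0.10, adjusted p = 2.56e-06), NDRG1 (0.72 ± 0.07, 1.14e-06), LOX (0.57 ± 0.07, 0.000143), ENO2 (0.44 ± 0.06, 0.000261), ADM (0.61 ± 0.09, 0.00163), ALDOC (0.37 ± 0.06, 0.00172), ANGPTL4 (0.59 ± 0.09, 0.00196) and BNIP3 (0.27 ± 0.05, 0.0103). Of the 13 other genes called, PPFIA4 and SPAG4 are further known HIF targets from a separate list of pathway genes. They were 2 of its 63 genes tested (3.17%), and 2 of the 28 HIF targets among these (7.14%). The median log2 difference was 0.02 over the 63 genes and 0.12 over the 40 members. The other 11 genes called are in neither list. Highest of these 11 were RPPH1 (5.75 ± 0.35) and RMRP (4.69 ± 0.37), the RNA components of RNase P and RNase MRP, which carry no poly(A) tail. The part of RNA quality or of library preparation in the difference between replicates was not tested. Without both LBD libraries 5 members passed, and ADM, ANGPTL4 and BNIP3 did not (adjusted p = 0.0566, 0.0601 and 0.395). Without both SUN2KO libraries ALDOC (0.0872) and BNIP3 (0.0844) did not pass.

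**Figure D4:**
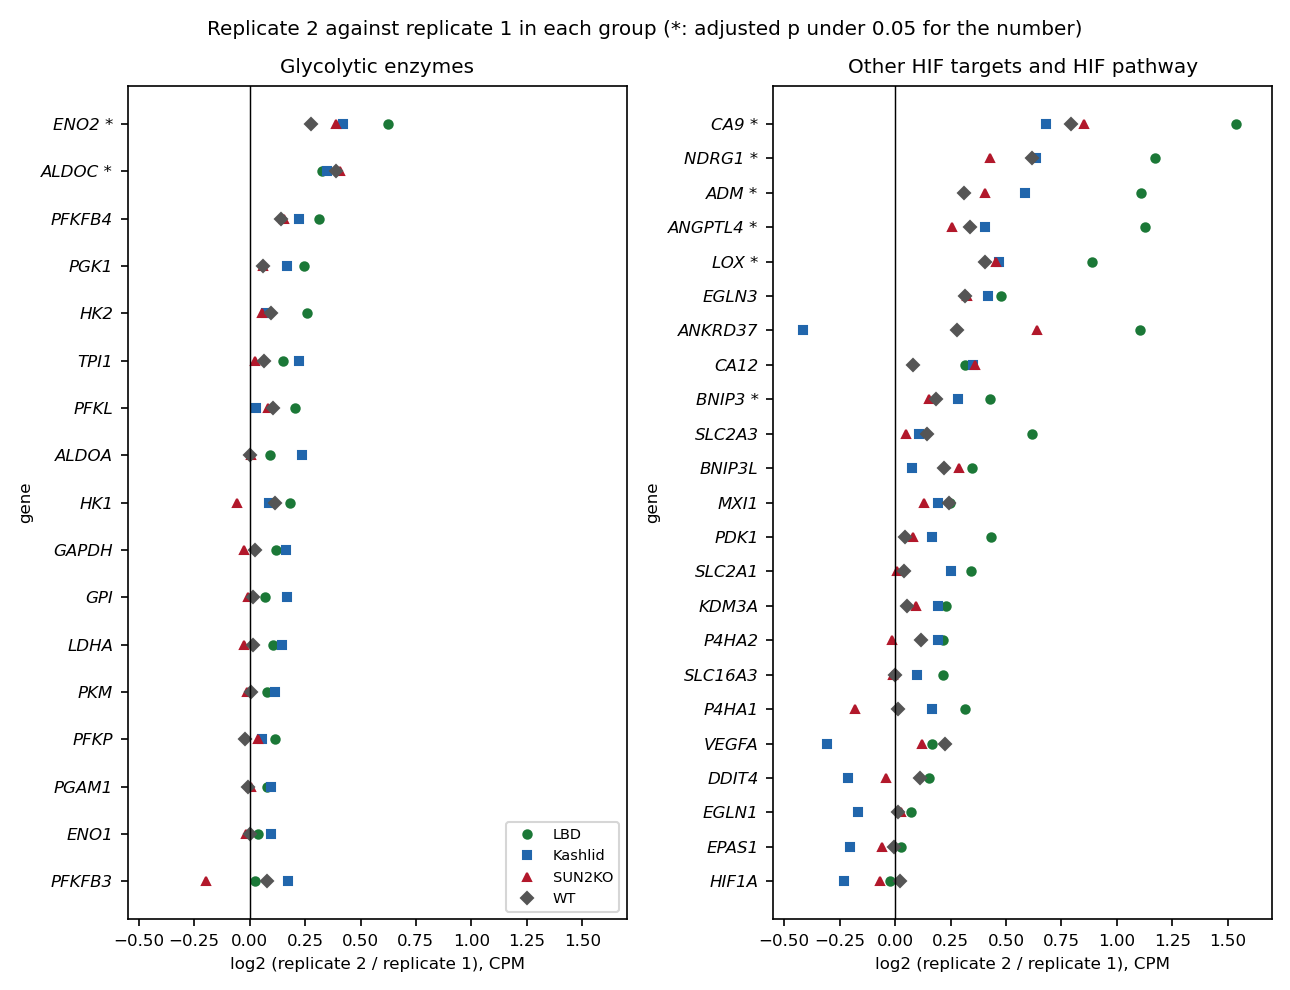
Log2 ratio of replicate 2 to replicate 1 in CPM for each of the 40 genes, with a symbol per group (LBD, Kashlid, SUN2KO, WT) and genes ordered by the fitted term; asterisks mark an adjusted p under 0.05 for the number. CA9 and NDRG1 lie right of 0 in all 4 groups, with LBD farthest right, and most glycolytic enzymes lie close to 0.

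Promoter sequences were examined as something these genes share that their choice did not use directly. RefSeq promoters (GRCh38.p14, 250 bases before to 50 after the most upstream listed start) were matched for 36 of the 40 members. The core of the HIF motif was searched as ACGTG and GCGTG on both strands, where the palindrome CACGTG counts as 2 overlapping matches. ACGTG was found in 16 of 36 member promoters (44.4%) and in 26.5% of the 10037 promoters of all tested genes. Either form was found in 27 of 36 (75.0%) and in 62.9% of the promoters of tested genes. GCGTG, with or without ACGTG, was no more frequent among members (47.2%) than among tested genes (50.6%). Of the 7 matched members called for the replicate number, 6 held ACGTG, and ADM held GCGTG only. A match is a string of letters and not a shown binding site.

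The 250 bases before the start are printed for 4 members called for the replicate number and for 2 enzymes, PGK1 and LDHA, that hold the same letters and were not called. Capitals mark ACGTG or GCGTG, which read CACGT or CACGC where the match is on the other strand. Sequences run 5′ to 3′ on the strand of the gene. CA9 (chr9:35673678-35673927, plus strand) has 1 match close to its start. LOX (chr5:122078260-122078509, minus strand) has 4. ANGPTL4 (chr19:8363905-8364154, plus strand) has 1, near the far end. BNIP3 (chr10:131981924-131982173, minus strand) has a cluster of 6. PGK1 (chrX:78103998-78104247, plus strand) has 3 and LDHA (chr11:18394313-18394562, plus strand) has 5 within these bases.
CA9: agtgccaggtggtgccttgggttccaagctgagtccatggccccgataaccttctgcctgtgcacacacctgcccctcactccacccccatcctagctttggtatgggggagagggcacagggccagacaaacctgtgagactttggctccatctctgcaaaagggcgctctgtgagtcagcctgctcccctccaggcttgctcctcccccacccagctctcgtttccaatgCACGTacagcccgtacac
LOX: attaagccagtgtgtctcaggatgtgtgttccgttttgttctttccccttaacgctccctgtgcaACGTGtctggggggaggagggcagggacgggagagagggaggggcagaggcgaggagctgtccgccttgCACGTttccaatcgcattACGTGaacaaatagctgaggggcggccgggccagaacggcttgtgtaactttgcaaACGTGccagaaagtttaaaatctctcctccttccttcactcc
ANGPTL4: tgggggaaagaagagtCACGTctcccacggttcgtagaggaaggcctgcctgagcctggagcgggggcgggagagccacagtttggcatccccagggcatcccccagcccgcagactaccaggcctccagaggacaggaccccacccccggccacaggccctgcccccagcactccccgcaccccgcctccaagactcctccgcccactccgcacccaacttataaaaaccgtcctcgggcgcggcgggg
BNIP3: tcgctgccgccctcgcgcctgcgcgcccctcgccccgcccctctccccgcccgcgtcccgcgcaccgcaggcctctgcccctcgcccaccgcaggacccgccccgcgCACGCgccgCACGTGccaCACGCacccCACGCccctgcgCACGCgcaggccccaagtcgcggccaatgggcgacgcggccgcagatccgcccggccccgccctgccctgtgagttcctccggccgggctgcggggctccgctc
PGK1: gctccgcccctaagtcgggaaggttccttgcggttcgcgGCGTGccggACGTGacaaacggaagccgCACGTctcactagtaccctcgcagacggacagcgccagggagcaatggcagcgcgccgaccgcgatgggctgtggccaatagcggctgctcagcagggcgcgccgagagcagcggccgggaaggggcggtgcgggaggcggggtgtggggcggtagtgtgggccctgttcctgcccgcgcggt
LDHA: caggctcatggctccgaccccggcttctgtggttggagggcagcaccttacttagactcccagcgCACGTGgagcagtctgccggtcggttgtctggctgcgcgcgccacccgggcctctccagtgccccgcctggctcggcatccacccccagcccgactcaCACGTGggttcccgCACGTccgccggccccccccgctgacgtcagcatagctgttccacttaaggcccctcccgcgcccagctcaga
ACGTG was thus present in promoters of genes called for the replicate number and in those of LDHA and PGK1, which were not called. The replicate ratios of LDHA and PGK1 lay between 0.981 and 1.19, though PGK1 had more CPM in replicate 2 in all 4 groups.

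Ratios between isoenzymes, which the list does not fix, differed between the groups and are described without a test. Per exon length, HK1 stood at 1.09 and 1.03 times HK2 in LBD, 0.987 and 0.996 times in Kashlid, 1.33 and 1.23 times in SUN2KO, and 1.59 and 1.60 times in WT. ENO1 stood at 85.6 and 57.1 times ENO2 in LBD, 66.3 and 53.0 times in Kashlid, 127 and 96.1 times in SUN2KO, and 124 and 102 times in WT. Among alpha subunits, HIF1A stood at 1.06 and 1.03 times EPAS1 in LBD, 1.19 and 1.17 times in Kashlid, 0.955 and 0.948 times in SUN2KO, and 0.811 and 0.825 times in WT. Per exon length, HIF1A transcript was thus above EPAS1 in both truncation lines and below it in SUN2KO and WT. In CPM, HIF1A lay below EPAS1 in every library, so the order in the truncation lines depends on the exon lengths used. These were 4256 bases for HIF1A and 5166 for EPAS1. By level per kilobase of exon, GAPDH was highest (2337 CPM per kb in LBD, 2152 in Kashlid, 2415 in SUN2KO and 1773 in WT), and CA12 was lowest in WT (0.792) and stood at 3.36 in LBD, 3.13 in Kashlid and 1.22 in SUN2KO.

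Other genes of the same pathways, 71 on a list of known members, were tested in the same fit, and 63 passed the filter. In LBD 12 rose and 17 fell, in Kashlid 11 rose and 14 fell, and in SUN2KO 10 rose and 22 fell. These are 46.0%, 39.7% and 50.8% of the 63, beside 40%, 44.5% and 36.7% of all genes. Of the 28 further HIF targets among them, 5 rose and 5 fell in LBD, 4 rose and 4 fell in Kashlid, and 1 rose and 14 fell in SUN2KO. Their called shares were 35.7%, 28.6% and 53.6%, below those of all genes in LBD and Kashlid and above in SUN2KO. With a change of at least 1 on the log2 scale, PPP1R3C, a glycogen-targeting subunit of protein phosphatase 1, fell in LBD (-1.01 ± 0.11) and Kashlid (-1.09 ± 0.11). RORA, a nuclear receptor, rose by 1.06 ± 0.26 in Kashlid, and BHLHE41, a circadian repressor, fell in SUN2KO (-1.05 ± 0.22). Among HIF regulators, HIF1AN, the asparaginyl hydroxylase that limits HIF activity, rose by 0.54 ± 0.06, 0.49 ± 0.06 and 0.55 ± 0.06 in LBD, Kashlid and SUN2KO (adjusted p of at most 5.76e-07). The medians of its 5 Mb window were 0.35, 0.37 and 0.32, so most of that difference was shared with its neighbours. VHL, which recognises hydroxylated HIF, rose by 0.23 ± 0.07, 0.34 ± 0.07 and 0.18 ± 0.07. CUL2, the scaffold of the VHL ubiquitin ligase, fell, with -0.74 ± 0.08, -0.75 ± 0.08 and -0.68 ± 0.07. HIF1AN, VHL and CUL2 were singled out after their values were seen.

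Several members sit in chromosomal stretches whose genes shifted together. Medians of the log2 fold change were taken over windows of 5 Mb with at least 15 tested genes, the member included. On chromosome 12, the window that holds TPI1, GAPDH, ENO2 and SLC2A3 had medians of 0.21, 0.26 and 0.25 in LBD, Kashlid and SUN2KO. TPI1 stood close to that median in each line, and GAPDH stood above it in LBD and SUN2KO. PFKL changed like its window, whose medians were -0.35, -0.37 and -0.35. Windows of ANKRD37 (-0.61, -0.56 and -0.54), BNIP3L (-0.36, -0.31 and -0.36), PFKFB3 (-0.13, -0.20 and -0.29) and MXI1 (0.27, 0.39 and 0.37) were shifted in the direction of the gene. The windows of CA12, ANGPTL4 and EPAS1 had medians between -0.06 and 0.10 in the 3 lines, and that of DDIT4 had 0.02 in LBD, 0.03 in Kashlid and 0.18 in SUN2KO. Relative to its window, PFKL differed from WT by no more than 0.11 in any line and did not pass (adjusted p = 0.769, 0.207 and 0.998 in LBD, Kashlid and SUN2KO). TPI1 did not pass either (0.262, 0.766 and 0.56), nor did ANKRD37 (0.314, 0.324 and 0.145), GAPDH in Kashlid (0.745) or VEGFA in Kashlid (0.565). MXI1 kept its calls in all 3 lines. No window value could be given for HK2, PFKP, PGK1, BNIP3, NDRG1 and LOX, whose windows hold too few genes.

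**Figure D5:**
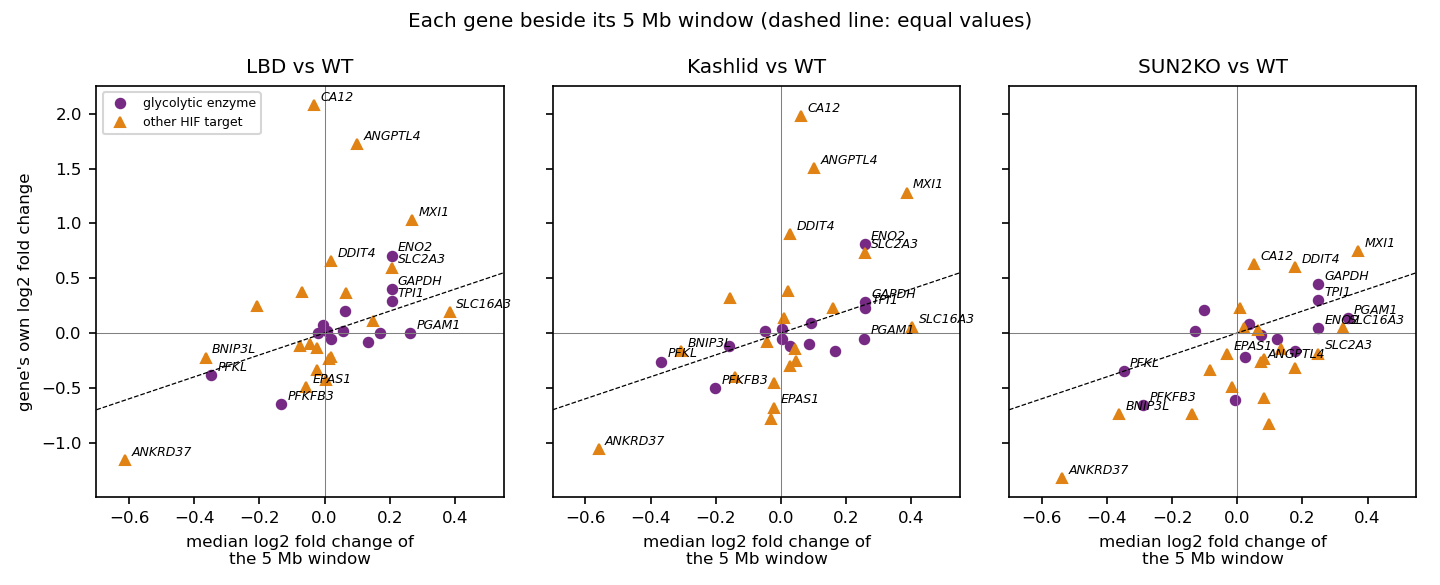
Log2 fold change of each member (vertical axis) beside the median of the genes in its 5 Mb window (horizontal axis), for LBD, Kashlid and SUN2KO over WT; circles are glycolytic enzymes, triangles the other members, and the dashed line marks equal values. PFKL and TPI1 lie near the line, while CA12 and ANGPTL4 in LBD and Kashlid lie far above it.

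In the authors' deposited tables, 17, 19 and 22 of the members had an adjusted p under 0.05 in LBD, Kashlid and SUN2KO. The fit here called 16, 19 and 18 of these, each with the sign the authors give. Called here and not by the authors were ENO2, SLC2A3, SLC16A3, NDRG1, ANKRD37, P4HA1 and LOX in LBD. In Kashlid they were ALDOA, ENO1, HIF1A, EGLN3, VEGFA and ANKRD37, and in SUN2KO HK1, CA12 and ANKRD37. The authors alone called HIF1A in LBD, and PGK1, LDHA, SLC2A3 and BNIP3 in SUN2KO. For ANGPTL4 the authors' deposited tables give log2 fold changes of 1.73, 1.51 and -0.26, and for CA12 they give 2.09, 1.98 and 0.63. For CA12 in SUN2KO their adjusted p was 0.0826 (DESeq2).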

How the data were processed

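RNA sequencing of 8 MDA-MB-231 libraries was used. Per the submitters' processing notes the tools were Trim Galore, STAR 2.7.1a, bedtools 2.24.0, HTSeq and DESeq2 with hg19; the strand setting is not given in the sources used here. The authors deposited raw counts per gene, with no row that names no gene. Their deposited tables also hold log2 fold changes and p-values, set beside the results here, and 4 columns per table without sample names that were not used.

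Groups came from the titles in the labels. Counts were fitted with edgeR 4.0.16 (R 4.3.3, limma 3.58.1): filterByExpr, TMM, 1 term per group over all 8 libraries (4 residual degrees of freedom), the quasi-likelihood test, and Benjamini-Hochberg adjustment over 14016 genes at 0.05. SE is the log2 fold change divided by the square root of F. The procedure was tested on simulated data. Depth, 16570099 to 18814795 counts per library, limits precision for genes of few CPM. Alternatives changed the scaling (median-ratio factors, or library size only), the filter (none, or 5 CPM in 2 libraries), the tool (DESeq2 1.42.0) and the libraries (the 2 groups alone, or all but 1), or added the replicate number as a block or an offset for the median of 5 Mb windows. Values of a fit that leaves 1 library in a group assume that it varies like the others. All 40 members were described. Values per library are given for members called against WT with a change of at least 0.5 on the log2 scale and for others set by role, 25 in all, and for ADM and ALDOC, added for their replicate ratios after these were seen; other pathway genes were named from a change of 1 on the log2 scale. The members and lists were chosen with earlier results of these data known. Pseudogenes, exon lengths and overlaps come from a GENCODE annotation matched by name, and promoters from RefSeq on GRCh38.p14.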

Additional observations from a re-analysis of the deposited data

Results flagged for a closer look

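The difference between the truncation lines and SUN2KO was itself tested, and it passed for members whose log2 fold change was at least 1 in size. In LBD against SUN2KO it was 1.99 for ANGPTL4, 1.46 for CA12, 1.20 for NDRG1 and 1.06 for LOX. In Kashlid against SUN2KO it was 1.77 for ANGPTL4, 1.35 for CA12, 1.13 for NDRG1, 1.06 for CA9 and 1.01 for LOX. The 2 lines share the SUN2KO libraries, and of these 5 genes CA9, NDRG1, LOX and ANGPTL4 also differed by replicate number.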

How the results depend on the processing

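With 2 libraries per group, single libraries weigh heavily. Leaving out each library in turn gave 20 to 24 members passing in LBD against WT, 20 to 26 in Kashlid against WT, 15 to 26 in SUN2KO against WT, 6 to 20 in LBD against SUN2KO, 10 to 21 in Kashlid against SUN2KO and 1 to 9 in LBD against Kashlid. Over all genes the ranges were 4014 to 6070, 4720 to 6189, 3569 to 5694, 884 to 2386, 1186 to 2469 and 129 to 839 in the same order. Kashlid against SUN2KO had 14 members in DESeq2, beside 1715 of 14186 genes. LBD against SUN2KO had 20 without a filter (beside 2181 of 19353 genes) and 7 in DESeq2 (1246 of 14555). It had 19 with the 2 groups alone (2227 of 13626) and 21 with the replicate block (2134 of 14016). LBD against Kashlid had 10 members without a filter (beside 775 of 19353 genes) and 0 with the 2 groups alone (129 of 13589). In the latter fit, by edgeR, 10 members had an unadjusted p under 0.05. It had 2 members in DESeq2 (326 of 8281 genes), 6 with the block (581 of 14016) and 1 with the window offset (400 of 14016). The term for replicate number called 11 genes without both SUN2KO libraries, 46 without both Kashlid libraries, and 10 genes with 5 members without both LBD libraries.

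Directions reversed under the window offset for PFKL (0.0025, adjusted p = 0.998) and PGAM1 (-0.20, 0.00139) in SUN2KO, for PFKL (0.11, 0.207), TPI1 (-0.027, 0.766) and ENO1 (0.038, 0.462) in Kashlid, and for SLC16A3 (-0.19, 0.0108) in LBD, all by edgeR; the offset subtracts the window's median, the gene included. NDRG1 in LBD lay between -0.087, without LBD replicate 2, and 1.09, without LBD replicate 1. The cause of the other changes was not tested. Replicate numbers were checked as pairs: the correlation of replicate differences between groups lay between -0.01 and 0.08 over all genes, and between -0.02 and 0.22 over genes of at least 5 CPM, where 4 of 6 group pairs exceeded 0.1. Since not every pair did, the numbers were not taken as pairs. For the replicate block, only members chosen by size or role for full values, or called in the main fit, were counted. Among these, 5 further members passed with the block in SUN2KO, 3 in Kashlid and 2 in LBD against WT, and none was lost. They include CA9 in SUN2KO (-0.74, edgeR adjusted p = 0.000208) and Kashlid (0.34, 0.0393), and NDRG1 in both (6.80e-05 and 5.20e-05).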
